A study of Mus musculus with 6 samples.

Results

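Wfdc12-positive ciliated epithelial cells are the ciliated cells of the mouse uterine tube (oviduct) in which at least 1 transcript of Wfdc12 was counted. They were 181 of 2092 ciliated cells (8.65%) and 0.936% of the 19330 barcodes that passed the cell filters in 6 libraries. A barcode was called ciliated when at least 3 of the 8 ciliary genes Foxj1, Dynlrb2, Dnah12, Cfap43, Spag17, Morn5, Rgs22 and Meig1 were detected and the fibroblast genes Dcn, Col1a1, Col1a2 and Col3a1 summed to fewer than 3 unique molecular identifiers (UMIs, counts of single captured transcripts). The other 1911 ciliated cells, with no Wfdc12 UMI, served as the comparison and are called Wfdc12-zero cells. The cells were thus selected on the counts of Wfdc12 and of these 12 other genes, whose values are a description with no test.

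The libraries came from adult C57BL6 females in estrus, and the labels give no other genotype and no treatment. Tubes were divided into a distal section, toward the ovary, and a proximal section, toward the uterus. A library is a pool of several animals of 1 group, whose number is not given in the sources used here. There were 3 distal libraries (numbered 1, 2 and 3 in their titles) and 3 proximal libraries (2, 3 and 4). The p-values for shares between sections therefore rest on the spread between pools. Those for genes compared within libraries rest on how far the difference between the classes varied from pool to pool. Neither measures the spread between single mice.

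Multiciliated cells of the tube beat to move gametes and embryos. Their program is driven by the transcription factor Foxj1 together with RFX factors, which turn on genes of the axoneme, the microtubule core of the cilium. They share the lining with secretory cells, which release Ovgp1 (oviductin) and are marked by Pax8. Wfdc12 belongs to a family whose proteins carry the WAP (whey acidic protein) domain, and many of these are small secreted protease inhibitors of mucosal surfaces.

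Promoter sequences are shown for Wfdc12, which defines the cells, for its neighbour Wfdc15b, and for S100g, since the last 2 are the most abundant of the 12 genes with the largest increase. Each run is the 250 bases before the RefSeq gene start on the minus strand of build GRCm38.p6, 5′ to 3′. The intervals are chr2:164190559-164190808 for Wfdc12, chr2:164221664-164221913 for Wfdc15b and chrX:162964600-162964849 for S100g. Capitals mark the letters TGTTTAC or the reverse GTAAACA, a forkhead (FOX) core, and GTTGCC or the reverse GGCAAC, a core of RFX sites.

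Wfdc12: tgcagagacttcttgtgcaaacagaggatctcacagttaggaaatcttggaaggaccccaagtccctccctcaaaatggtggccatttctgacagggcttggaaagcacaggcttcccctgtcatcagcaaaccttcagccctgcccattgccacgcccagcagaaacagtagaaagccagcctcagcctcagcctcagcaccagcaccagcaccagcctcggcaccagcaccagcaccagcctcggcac

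Wfdc15b: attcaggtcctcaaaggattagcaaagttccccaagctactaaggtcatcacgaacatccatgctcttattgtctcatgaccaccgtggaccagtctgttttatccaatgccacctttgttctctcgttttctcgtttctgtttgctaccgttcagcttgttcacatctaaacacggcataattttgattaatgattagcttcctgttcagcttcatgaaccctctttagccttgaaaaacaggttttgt

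S100g: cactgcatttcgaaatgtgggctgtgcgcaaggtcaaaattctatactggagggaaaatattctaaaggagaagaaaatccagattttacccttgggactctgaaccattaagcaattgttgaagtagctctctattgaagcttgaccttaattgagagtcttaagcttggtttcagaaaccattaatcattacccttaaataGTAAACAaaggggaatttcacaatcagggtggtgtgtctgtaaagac

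Of these 3 promoters, S100g alone held a marked motif, a FOX core whose first base has position -47 relative to the gene start. Searched on both strands of the 300 bases around each start, the FOX letters were in 3.65% of 32851 mouse promoters and the RFX letters in 12.5%. Of the 12 most increased genes, 10 had a promoter in the table, of which 1 held the FOX letters and 3 the RFX letters. The CArG box, the element bound by serum response factor, was in none of the 3 promoters shown and in 1.63% of all promoters. A match says only that these letters occur in the window.

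The libraries held 326 to 7073 filtered barcodes with a median of 731.5 to 4695 UMIs, and 91560090 UMIs over 20731 barcodes before filtering. Across libraries, 188 barcode sequences occurred more than once. Of the Wfdc12-positive cells, 5 had such a barcode, and none was shared between Wfdc12-positive cells. In the distal libraries the Wfdc12-positive cells were deeper than the Wfdc12-zero cells, with median UMIs of 5482 against 3377 in distal 1, 4054 against 2582 in distal 2 and 5289.5 against 2564 in distal 3. Their median number of detected ciliary genes was 7, 7 and 6, against 6, 6 and 5.

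Wfdc12-positive cells were found mainly in the distal libraries, where most ciliated cells were. They numbered 86 of 615 ciliated cells in distal 1, which is 14.0% with an exact (Clopper-Pearson) 95% interval of 11.3 to 17.0%. In distal 2 they were 35 of 382, or 9.16% (6.46 to 12.5%), and in distal 3 they were 54 of 1049, or 5.15% (3.89 to 6.66%). The intervals of distal 1 and distal 3 do not overlap, so the share differed between distal pools by more than counting error. The proximal libraries held 3 of 14 ciliated cells (21.4%, 4.66 to 50.8%), 0 of 6 (interval up to 45.9%; a floor of 3 counts is 50%) and 3 of 26 (11.5%, 2.45 to 30.2%). Intervals and floors cover counting error only.

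The share was 9.43% ± 4.42 (SD, n = 3) in distal and 10.99% ± 10.7 (n = 3) in proximal libraries. The difference, 1.56 percentage points, was smaller than the spread (two-sided exact permutation test, p = 0.9, smallest possible p 0.1 with 3 against 3). It turned to -0.584 points without distal 3 and to -3.66 points without proximal 2, and it was 3.83 points without distal 1 and 7.05 points without proximal 3. When every ciliated cell was thinned to 1000 UMIs, which left out 241 shallower cells, Wfdc12 was detected in 8.20%, 7.27% and 2.97% of distal cells. It was then detected in 0 of 11 cells of proximal 2 (interval up to 28.5%) and 0 of 23 of proximal 4 (up to 14.8%), a difference of -6.15 points (exact permutation test, 2 against 3 libraries, p = 0.2). The proximal values rest on 46 ciliated cells in all, and their intervals are wide.

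**Figure D1:**
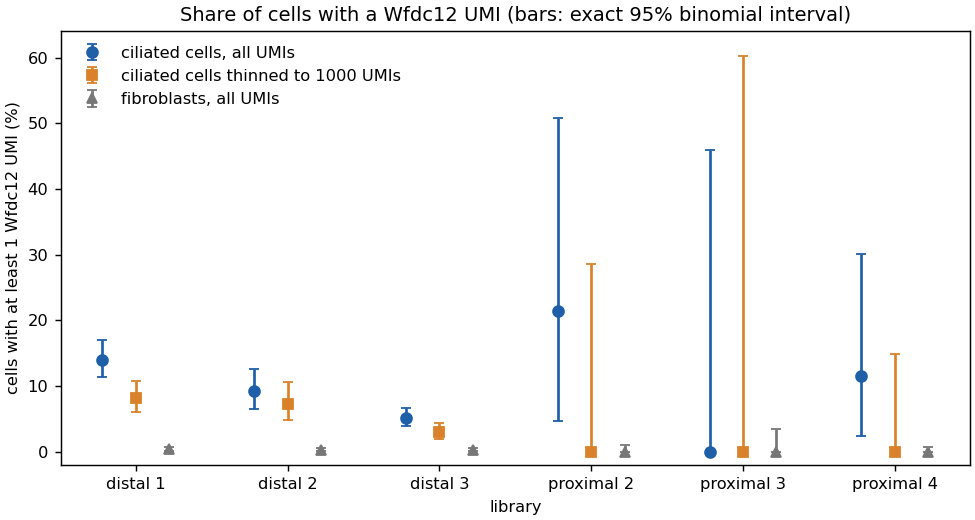
Share of cells with at least 1 Wfdc12 UMI (percent, vertical axis) in each of the 6 libraries, for ciliated cells at full depth, ciliated cells thinned to 1000 UMIs and fibroblasts. Points are shares and bars are exact 95% binomial intervals. Ciliated cells of distal 1 to 3 lie at 14.0, 9.16 and 5.15%, the proximal intervals span most of the range below 50.8%, and fibroblasts lie near 0.

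Wfdc12 was detected in a far larger share of ciliated cells than of barcodes with no ciliary gene. Fibroblasts, taken as barcodes with at least 10 UMIs of the 4 stromal genes and no ciliary gene, had a Wfdc12 UMI in 19 of 7884 cells (0.241%) at a median depth of 3644 UMIs. The ciliated cells had 8.65% at a median of 2984 UMIs. Barcodes with no ciliary gene and few stromal UMIs had it in 14 of 5560 (0.252%). After thinning to 1000 UMIs the shares were 5.29% in ciliated cells and 0.0798% in fibroblasts. Both comparison groups leave out barcodes with a ciliary gene, so their shares can understate the free RNA of ciliated cells. That level was not measured.

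The rule draws a sharp line across graded values. Just outside it, barcodes with 2 ciliary genes had a Wfdc12 UMI in 5.15% of 388 cells, and just inside it, those with 3 had one in 4.90% of 347 cells. At 7 and 8 ciliary genes the shares were 12.4% and 12.1%, in cells whose median depth was 5290 and 8176 UMIs against 1189 at 3 genes. Ciliated barcodes with 2 stromal UMIs had a Wfdc12 UMI in 12.8% of 109 cells, and those with 3, just outside, in 14% of 50 cells.

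Wfdc12 itself was unevenly spread among the positive cells. The count ran from 1 to 96 UMIs per cell with a median of 2. Of the 181 cells, 68 had 1 UMI, 49 had 2 to 4, 32 had 5 to 9 and 32 had 10 or more. Those last 32 cells held 820 of the 1228 Wfdc12 UMIs (66.8%), and all 32 were distal. Summed over the positive cells, Wfdc12 reached 1046, 2033 and 506 CPM in distal 1, 2 and 3. CPM here are UMI counts rescaled to 1000000 UMIs of the tested genes after TMM scaling, unless CPM of all UMIs is stated.

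The other genes of the rule describe ciliated cells of both kinds. Foxj1, the master factor of motile cilia, stood at 815, 911 and 649.9 CPM in Wfdc12-positive cells and at 783, 617 and 732 CPM in Wfdc12-zero cells of distal 1, 2 and 3. Dnah12, an axonemal dynein heavy chain, had 828 CPM ± 253 against 1157 ± 282 (SD, n = 3), and Rgs22 had 746 ± 178 against 1159 ± 277. Dcn was at 21.4 CPM ± 5.30 against 21.3 ± 2.93 in a selection that caps it.

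Wfdc12-positive and Wfdc12-zero cells were then compared within the 3 distal libraries, each of which held at least 10 cells of both. The UMIs of each class in a library were added up, and the fit had the library as a block. Of 10839 genes tested, 949 (8.76%) passed an adjusted p of 0.05 in edgeR's quasi-likelihood test with Benjamini-Hochberg adjustment. Of these, 637 (5.88%) were higher and 312 (2.88%) lower in the Wfdc12-positive cells, and 921 went the same way in all 3 libraries. At least 2-fold changes were passed by 363 higher and 166 lower genes. In 525 of the higher and 259 of the lower genes, the 3 values of one class lay entirely beyond the 3 of the other. This count and the 921 with the same sign were taken only among genes that had passed, not over all 10839, so they add no support to the calls. DESeq2 called 442 genes, all in the direction edgeR gave. In edgeR, 425 genes passed without distal 1 and 547 without distal 3. With Wfdc12-zero cells drawn to match the depth of the positive cells it was 588 of 8297 tested, of which 567 were among the 949.

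The gene with the lowest adjusted p was Wfdc15b, a WAP-domain gene that in the RefSeq gene order lies beside Wfdc12 with only Wfdc15a between them. Wfdc15b stood at 1414, 1526 and 1025 CPM in the Wfdc12-positive cells of distal 1, 2 and 3 and at 211, 128 and 134 CPM in the Wfdc12-zero cells. Every positive value lay far above every other. The log2 fold change was 3.06 ± 0.17 (SE), an 8.37-fold difference (edgeR quasi-likelihood, adjusted p = 7.73e-09). Wfdc15b was detected in 142 of the 175 distal Wfdc12-positive cells (81.1%). Conversely, 25.7% of the 553 distal ciliated cells with Wfdc15b had a Wfdc12 UMI, against 2.21% of those without it. By library the shares were 38.0%, 30.3% and 15.9% against 3.50%, 2.73% and 1.30% in distal 1, 2 and 3. These shares are at full depth, and deeper cells detect both genes more often. Wfdc15a and Wfdc15b are related copies, so reads that fit both make their separate counts uncertain.

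Of 21 WAP family members matched, 6 were tested, and 2 passed (33.3%), both higher, beside 8.76% of all genes. The lists here and below were chosen with earlier results of these data known, so their shares are not independent evidence. Wfdc13 was the other, at 25.8 CPM ± 5.55 against 5.83 ± 1.15 (SD, n = 3), a log2 fold change of 2.10 ± 0.38 (edgeR adjusted p = 0.00178). It passed the filter on low counts only through the positive cells, so the share of 33.3% is not independent of that filter. Wfdc18 was abundant in both classes, at 1250 CPM ± 540 against 1464 ± 541, and Wfdc2, a secreted protein widely used as an epithelial marker, was at 82.2 ± 60.7 against 100.2 ± 15.2. Neither passed, and nor did Wfdc1 or Wfdc3. With every cell thinned to 1000 UMIs and the classes set anew by the thinned Wfdc12 count, Wfdc18 did pass, as lower (edgeR adjusted p = 0.00544). Around the locus, Wfdc5, on the other side of Wfdc12, had 10 UMIs in positive and 7 in zero cells, and Wfdc15a had 4 and 1, too few to test. The seminal vesicle genes beyond Wfdc15b, Svs2 to Svs6, had 0 UMIs in both classes.

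S100g, which encodes the small calcium-buffering protein calbindin, was the other abundant gene among the largest increases. It stood at 1311, 1371 and 843 CPM in Wfdc12-positive cells and at 237, 292 and 62.7 CPM in Wfdc12-zero cells. The classes did not overlap, and the log2 fold change was 2.80 ± 0.22 (edgeR adjusted p = 5.83e-07). The remaining 10 of the 12 largest increases were less abundant genes. They were Sez6l, a neuronal transmembrane protein, Map6, which stabilises microtubules, Spink2, a Kazal-type protease inhibitor, Msx3, a homeobox factor, Atg9b, an autophagy protein, Csmd2, and the unnamed or noncoding genes 8030442B05Rik, F730016J06Rik, Gm32558 and Gm10354. Their log2 fold changes ran from 2.84 to 3.32. Spink2, the steadiest of them, was at 61.2, 62.1 and 55.5 CPM against 8.41, 11.5 and 4.51. Csmd2 had its high mean from distal 2, with 15.8, 108.6 and 22.2 CPM against 5.85, 9.62 and 1.88. These 10 genes had means of 2.67 to 11.8 CPM in the zero cells and could not have passed the filter on low counts without the positive cells. Such a filter favours large increases among rare genes, so their place among the largest changes is not independent of it.

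The 12 largest decreases ranged from -3.35 to -2.49 on the log2 scale. Nupr1, a small stress-responsive nuclear protein, was by far the most abundant of them, at 131, 88.0 and 144 CPM in Wfdc12-positive cells and 695, 637 and 975 CPM in Wfdc12-zero cells. Its log2 fold change was -2.64 ± 0.16 (edgeR adjusted p = 3.09e-08). Igfbp2, an insulin-like growth factor binding protein, was at 17.5, 5.17 and 17.7 CPM against 85.2, 78.9 and 93.3. Both genes kept the classes apart in every library. Apart from Nupr1, the 12 genes had means of 1.32 to 13.5 CPM in the positive cells and passed the filter on low counts only through the zero cells. For them the filter favours large decreases. Frmpd4 (a scaffold protein), Cox6b2 (a respiratory chain subunit), Rgs7 (a regulator of G protein signalling), Msln (mesothelin), BC039771, Meg3 (a long noncoding RNA), Gm10415 and Gata6 (a zinc finger transcription factor) passed with log2 fold changes of -3.10 to -2.55. Ralyl, an RNA-binding protein, also passed but had an adjusted p of 0.0514 without distal 3. Kcnh8, a voltage-gated potassium channel, had 2 UMIs in the positive cells against 154, a ratio of 0.0994 with an exact counting interval of 0.0119 to 0.365, and an edgeR adjusted p of 0.0045 with all libraries and 0.0533 without distal 1.

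**Figure D2:**
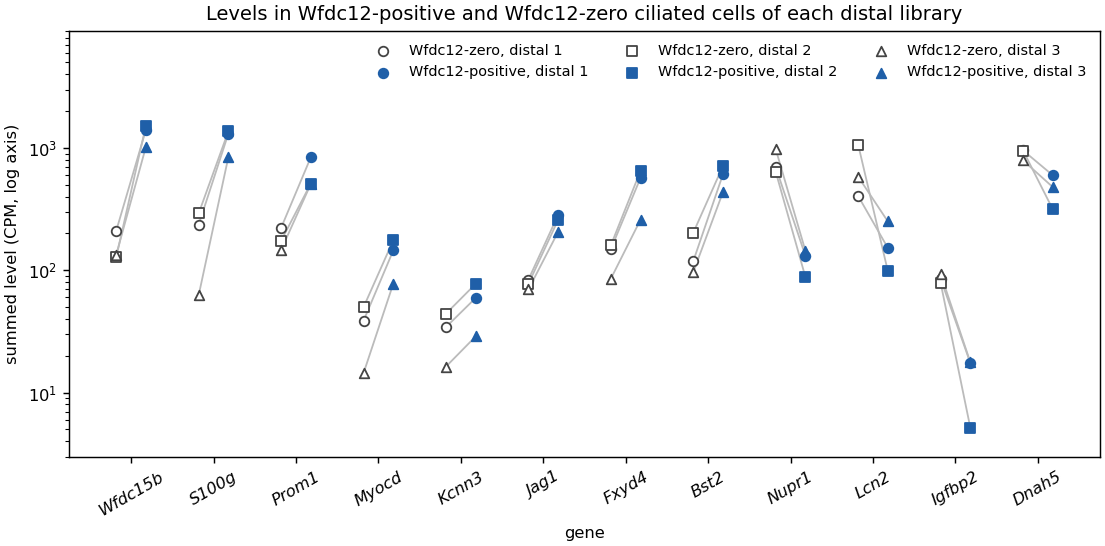
Summed level (CPM, log axis) of 12 genes in the Wfdc12-positive cells (filled) and Wfdc12-zero cells (open) of distal 1, 2 and 3, with a line joining the 2 classes of a library. Wfdc15b, S100g, Prom1, Myocd, Jag1, Fxyd4 and Bst2 are higher and Nupr1, Lcn2, Igfbp2 and Dnah5 lower in all 3 libraries with no overlap of the classes, whereas the Kcnn3 values overlap.

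Of the 3 genes listed beside Wfdc12 and Foxj1 as markers of these cells, Prom1 and Myocd stood apart and Kcnn3 hardly did. Prom1 encodes prominin, a membrane protein of protrusions that is also used as a marker of progenitor and pre-ciliated cells. It was at 840, 512 and 508 CPM against 223, 174 and 147, with a log2 fold change of 1.77 ± 0.14 (edgeR adjusted p = 7.34e-07). Myocd encodes myocardin, a coactivator of serum response factor best known from smooth muscle. It was at 145, 176 and 77.6 CPM against 38.7, 50.0 and 14.5, with a log2 fold change of 2.02 ± 0.19 (edgeR adjusted p = 3.73e-06). The classes did not overlap for either gene. These markers were named with results of these data known, so their direction is not independent evidence.

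Kcnn3 encodes a small-conductance calcium-activated potassium channel. It was at 59.5, 77.6 and 28.8 CPM against 34.4, 44.2 and 16.3, so distal 3 positive cells lay below the zero cells of the other pools. Its log2 fold change of 0.80 ± 0.24 just passed (edgeR adjusted p = 0.0458) and missed the threshold when any of the 3 libraries was left out (adjusted p of 0.355, 0.123 and 0.149 without distal 1, 2 and 3) or with DESeq2 (adjusted p = 0.346). After thinning to 2000 UMIs, Kcnn3 was detected in 8.0%, 6.9% and 8.16% of Wfdc12-positive cells, in 8.31%, 10.6% and 4.31% of Wfdc12-zero cells and in 14.9%, 12.5% and 13.7% of fibroblasts. At this matched depth the positive cells had the higher share in distal 3 alone, and both ciliated classes lay below fibroblasts.

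Detection per cell at a fixed depth of 2000 UMIs gave the other leading genes the same direction as the summed levels. Wfdc15b was detected in 62.7%, 58.6% and 69.4% of Wfdc12-positive cells of distal 1, 2 and 3, in 16.6%, 13.9% and 14.3% of Wfdc12-zero cells and in 0.629 to 2.61% of fibroblasts. At full depth the positive cells had 82.6%, 77.1% and 81.5% and the zero cells 21.9%, 17.9% and 23.4%. Prom1 was detected in 69.3%, 48.3% and 53.1% at 2000 UMIs, against 27.3%, 13.9% and 18.1% of zero cells and at most 1.01% of fibroblasts. Nupr1 was found in 6.67%, 13.8% and 10.2% against 41.8%, 35.6% and 48.8% of zero cells. Fibroblasts had it more often than either ciliated class, in 58.1%, 61.6% and 62.0%. Thinning left out 11, 6 and 5 of the positive cells. The genes of this paragraph and of the next were chosen after their values were seen.

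The positive cells were also divided by their Wfdc12 count, with levels as CPM of all UMIs and no test, since Wfdc12 chose the classes. At 0, 1, 2 to 4, 5 to 9 and 10 or more Wfdc12 UMIs, Wfdc15b was at 215, 891, 1376, 1142 and 2935 CPM in distal 1, at 125, 961, 1449, 1004 and 2014 in distal 2 and at 133, 574, 893, 1224 and 2427 in distal 3. In each library it was lowest in cells with no Wfdc12 UMI and highest in cells with 10 or more. S100g was at 241, 1210, 1421, 1545 and 909 CPM in distal 1, at 286, 480, 2272, 697 and 1816 in distal 2 and at 62.0, 177, 675, 1522 and 2852 in distal 3, so it followed the order of the classes in distal 3 alone. Nupr1, which was lower in positive cells, was at 707, 228, 98.9, 58.6 and 10.3 CPM in distal 1, at 623, 231, 65.9, 41.0 and 13.3 in distal 2 and at 964, 214, 112, 0 and 50.9 in distal 3. Pooled over the 3 libraries, which enter the classes in different proportions, Prom1 was at 172, 450, 506, 950 and 930 CPM, and Foxj1 lay between 585 and 950 CPM. In each of the 3 libraries, cells with 1 Wfdc12 UMI had more Wfdc15b, S100g and Prom1 and less Nupr1 than cells with none. The classes differ in depth, with median UMIs of 2846, 4537.5, 4182, 5982 and 8112, whose part in the grading was not tested.

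**Figure D3:**
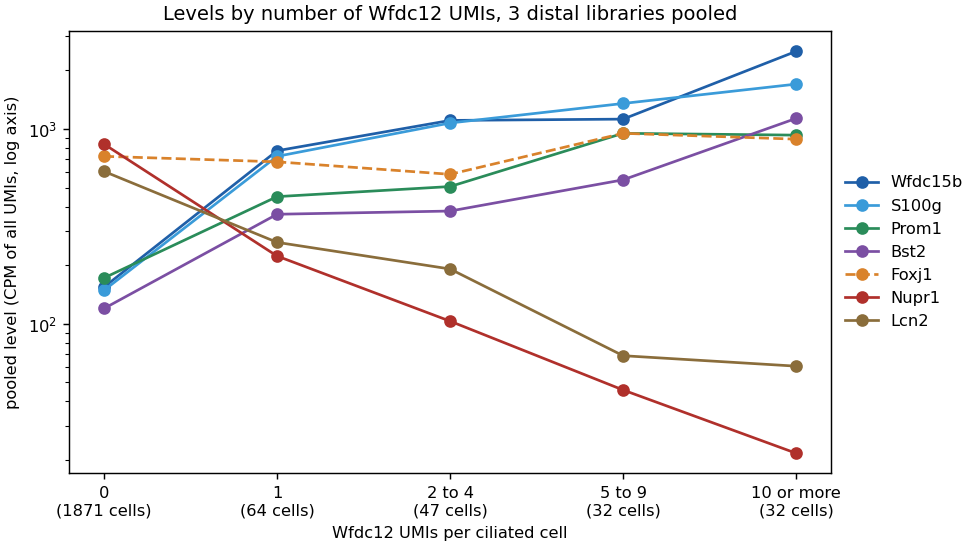
Pooled level (CPM of all UMIs, log axis) of 7 genes in distal ciliated cells by their number of Wfdc12 UMIs, with the number of cells under each class. Pooled over the 3 distal libraries, Wfdc15b goes from 154 to 2505 CPM and Nupr1 from 836 to 21.6 CPM between the first and the last class, whereas Foxj1 lies between 585 and 950 CPM.

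The axonemal genes that passed were lower in the Wfdc12-positive cells. Of 19 axonemal motor genes tested (dynein chains and their partners), 3 passed (15.8%, beside 8.76% of all genes) and all 3 were lower (2 of them also without distal 1, and 2 without distal 3), and the median log2 fold change was -0.35 beside 0.0020 over all genes. Dnah5, an outer-arm dynein heavy chain, was at 598, 316 and 479 CPM against 955, 953 and 792, with a log2 fold change of -0.95 ± 0.17 (edgeR adjusted p = 0.00126). Of 49 axonemal scaffold genes, 10 passed (20.4%) and all 10 were lower, with a median of -0.37. Of these 10, 4 still passed without distal 1 and 4 without distal 3. Among them were Drc3 of the dynein regulatory complex (-0.88 ± 0.16) and Spag16 of the central apparatus (-0.95 ± 0.19). Of 30 genes of intraflagellar transport and the basal body, 1 passed (3.33%) and 10 had a positive log2 fold change: Ift172 was higher by 0.54 ± 0.15 on the log2 scale (edgeR adjusted p = 0.0302), with adjusted p of 0.194, 0.127 and 0.103 without distal 1, 2 and 3.

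Of 12 regulators of ciliogenesis tested, 1 passed (8.33%, near the 8.76% of all genes), 3 had a positive log2 fold change and the median was -0.19. At an unadjusted p under 0.05 there were 4 in edgeR. The one that passed was Deup1, which builds the structures that multiply basal bodies. It was at 12.2, 0 and 6.65 CPM against 26.0, 35.9 and 20.8, with a log2 fold change of -1.67 ± 0.47 (edgeR adjusted p = 0.0335), and with adjusted p of 0.0543, 0.0705 and 0.127 without distal 1, 2 and 3. In the list of pre-ciliated markers 4 genes were tested, of which 2 passed (50%), Prom1 as higher and Deup1 as lower. Cdc20b, another gene of basal body multiplication, had no UMI in the distal positive cells. Those cells held 585849, 206653 and 472186 UMIs in distal 1, 2 and 3, against 2689722, 1594336 and 5390956 in zero cells. A rare gene is thus more easily missed in positive cells. This limit applies to every gene given below as 0 in them. Of 7 cell-cycle genes tested 1 passed (14.3%), the cell-cycle inhibitor Cdkn1a, at 215 CPM ± 44.2 against 141 ± 13.4, with an edgeR adjusted p of 0.0358, and of 0.616 and 0.0504 without distal 1 and distal 2.

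Of 14 secretory-cell genes tested, 5 passed (35.7%, beside 8.76% of all genes) and all 5 were higher (Fxyd4, Upk1a, Ovgp1, S100b and Pax8). The log2 fold change was positive in 11 of the 14, with a median of 0.52, and 2 of the 5 still passed without distal 1. This list was chosen with earlier results of these data known, so its share is a description and not independent evidence. Fxyd4, a regulator of the sodium pump, was at 571, 652 and 259.5 CPM against 149, 160.3 and 85.4, with a log2 fold change of 1.86 ± 0.15 (edgeR adjusted p = 6.31e-07). Ovgp1 was at 8275, 5768 and 7085 CPM against 4008, 4700 and 4369, with a log2 fold change of 0.68 ± 0.12 (edgeR adjusted p = 0.00162), and with an adjusted p of 0.405 without distal 1 and 0.0696 without distal 3. Upk1a, a uroplakin of the apical membrane, was at 142, 134.5 and 129 CPM against 75.3, 60.3 and 59.9, and missed the threshold with Wfdc12-zero cells matched in depth (edgeR adjusted p = 0.173) and with positive cells of at least 2 Wfdc12 UMIs (adjusted p = 0.200). Of 10 general epithelial genes, 1 passed (10%). It was Pax2, a partner of Pax8 in the tubal lineage, at 94.7 CPM ± 36.7 against 29.3 ± 3.42. Krt8 and Epcam were at 499 and 407 CPM in positive and at 496 and 418 CPM in zero cells.

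Markers of other cell types that could reach a droplet are given beside these secretory values. The secretory list summed to 10917 to 14206 CPM of all UMIs in Wfdc12-positive cells and to 7916 to 9411 CPM in Wfdc12-zero cells, and Msx2, Sprr2f and Rspo1 were at 0 in the positive cells. Barcodes with the highest simulated-doublet scores made up 8.14%, 5.71% and 1.85% of the positive cells and 11.7%, 6.05% and 2.41% of the zero cells. The median score went the other way. It was 0.591, 0.677 and 0.618 in positive and 0.516, 0.606 and 0.430 in zero cells of distal 1, 2 and 3. Removing those barcodes took out 7, 2 and 1 positive cells, and the Fxyd4 and Ovgp1 differences were as large (log2 fold changes of 1.88 and 0.76). Whether remaining doublets add to the secretory values was not tested. Ovgp1 was also detected at 2000 UMIs in 22.3 to 29.1% of fibroblasts, against 93.9 to 100% of positive and 65.7 to 73.1% of zero cells.

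The marker lists of other lineages had few genes abundant enough to test. In the positive cells, 1 of 10 fibroblast, 3 of 10 endothelial, 7 of 14 immune, 7 of 10 granulosa and 7 of 9 mesothelial genes were at 0. The fibroblast list, without the genes of the rule, summed to 59.3 to 102 CPM in positive and 51.2 to 77.8 CPM in zero cells, and 1 of its 10 members was tested, Pi16, which was higher at 23.7 CPM ± 7.79 against 8.43 ± 3.57 but missed the threshold when any library was left out (edgeR adjusted p of 0.156, 0.0601 and 0.0806 without distal 1, 2 and 3). Pi16 was tested only because its level in the positive cells met the filter on low counts. The smooth muscle list had 4 tested genes, none of which passed, at 24.2 to 140.0 against 33.9 to 157 CPM. The endothelial, immune and granulosa lists had no gene abundant enough to test. They summed to 0 to 167, 10.6 to 78.5 and 0 to 5.12 CPM in positive cells, against 21.3 to 46.8, 28.6 to 46.4 and 2.51 to 29.0 CPM in zero cells. Ptprc and Cd3e, which define leukocytes and T cells, were at 0 in the positive cells. The mesothelial list summed to 439 to 546 against 445 to 626 CPM, with Msln lower and Upk3b and Lrrn4 at 0.

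Potassium channel genes split by member. Of 17 tested, 4 were higher (Kcnn3, Kcnmb1, Kcnmb4 and Kcnk1) and 2 lower (Kcnmb2 and Kcnh8), or 35.3% beside 8.76% of all genes, with a median log2 fold change of -0.03. Kcnmb4 and Kcnmb2 are alternative accessory subunits of the large-conductance calcium-activated channel. Kcnmb4 was at 96.2, 124 and 68.8 CPM against 55.2, 40.4 and 31.2 (log2 fold change 1.11 ± 0.20), and Kcnmb2 was at 87.5, 15.5 and 59.9 CPM against 178, 176 and 165 (-1.50 ± 0.24). Of the 6, 2 still passed without distal 1 and 4 without distal 3. Of 29 calcium handling and other channel genes, 2 were higher and 2 lower (13.8%, beside 8.76% of all genes). Of these 4, Ryr2 alone still passed without distal 1. Ryr2, a calcium release channel, was at 31.5, 41.4 and 22.2 CPM against 104, 98.8 and 67.4, with a log2 fold change of -1.58 ± 0.23 (edgeR adjusted p = 0.000214). Atp2b2, a plasma membrane calcium pump, was higher by 1.18 ± 0.19 with an adjusted p of 0.115 without distal 1.

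In the myocardin and contractile list, 2 of 12 tested genes passed (16.7%, beside 8.76% of all genes), Myocd and Mylk. The log2 fold change was positive in 8 of the 12, with a median of 0.20, and the list summed to 1256 to 1338 CPM of all UMIs in positive and 810 to 1266 in zero cells. Mylk, the myosin light chain kinase, was at 212, 150.0 and 306 CPM against 125, 118 and 194, with overlapping classes, a log2 fold change of 0.62 ± 0.15 (edgeR adjusted p = 0.0153) and adjusted p of 0.347 and 0.158 without distal 1 and distal 3. Actc1 and Acta1, the striated muscle actins, had no UMI in the distal positive cells.

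Among interferon-responsive genes 9 of 19 passed (47.4%, beside 8.76% of all genes), 8 higher and 1 lower, with a median log2 fold change of 0.81. The list summed to 1468 to 1849 CPM of all UMIs in positive cells and 748 to 916 CPM in zero cells. Bst2 (tetherin), which retains enveloped virus particles at the cell surface, was at 611, 714 and 437 CPM against 119, 203 and 96.9, with a log2 fold change of 2.12 ± 0.15 (edgeR adjusted p = 1.82e-07). Oasl2, of the oligoadenylate synthetase family, was at 182, 160.4 and 146 CPM against 104, 73.7 and 80.4. Usp18, which removes the modifier Isg15 and restrains interferon signalling, was the lower member, at 23.8 CPM ± 10.7 against 49.3 ± 10.9. Of the 9 calls, 4 remained without distal 1 and 3 without distal 3, Bst2 among them in both cases. Fibroblasts also had Bst2, in 42.0 to 58.9% of cells at 2000 UMIs. Of 9 antigen presentation (MHC) genes tested by edgeR, 0 passed, with 1 at an unadjusted p under 0.05 and 0 by DESeq2.

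Mucosal defence genes went both ways. Of 8 tested, 3 passed (37.5%, beside 8.76% of all genes). Complement C3 was higher (553, 295 and 275 CPM against 159, 94.3 and 163), and Lcn2 and Ltf, iron-binding antibacterial proteins, were lower. Lcn2 was at 152, 98.3 and 251 CPM against 404, 1061 and 582, with a log2 fold change of -1.82 ± 0.26 (edgeR adjusted p = 0.000245). At 2000 UMIs per cell Lcn2 was detected in 10.7%, 3.45% and 16.3% of positive and 15.8%, 18.5% and 27.4% of zero cells, whereas at full depth the shares were 20.9%, 11.4% and 25.9% against 19.5%, 17.3% and 25.5%. Ltf had an adjusted p of 0.0834 without distal 3.

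Of 17 cyclic nucleotide genes tested, 5 passed (29.4%, beside 8.76% of all genes) and all 5 were lower, although the median of the list was 0.14. Pde4d, Pde4b and Pde8b degrade cyclic AMP. Pde4d was at 82.2, 25.9 and 169 CPM against 497, 431 and 330 (log2 fold change -2.10 ± 0.30, edgeR adjusted p = 0.000238), and Akap6, an anchoring protein of the cyclic AMP kinase, was at 26.2, 25.9 and 26.6 CPM against 71.7, 78.2 and 65.7. Adhesion and guidance genes had 5 decreases (25%) of 20 tested (Cdh13, Efna5, Sema3e, Slit2 and Ntn4) and no increase, with a median of -0.41. Efna5, an ephrin ligand, was at 70.0, 98.3 and 102 CPM against 182, 196 and 168, with a log2 fold change of -1.03 ± 0.18 and an edgeR adjusted p of 0.0582 without distal 1. Of the 5 decreases, 1 still passed without distal 1 and 2 without distal 3.

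Among signalling genes, Jag1, a Notch ligand, was at 283.5, 259 and 206 CPM against 84.1, 77.6 and 69.8, with a log2 fold change of 1.68 ± 0.15 (edgeR adjusted p = 2.43e-06), and it was the 1 of 11 Notch genes that passed (9.09%, beside 8.76% of all genes). Of 21 Wnt genes, 0 passed in edgeR or DESeq2, with 3 at an unadjusted p under 0.05. Of 15 steroid receptor and target genes, 2 passed (13.3%), Areg and Cited2, both lower, of which neither passed without distal 1 (edgeR adjusted p of 0.18 and 0.269). Esr1, the estrogen receptor, was at 586 CPM ± 97.4 against 494 ± 93.4 and did not pass. In the prostaglandin and peptide list 2 of 11 passed (18.2%), both higher, Adm (edgeR adjusted p of 0.0736 without distal 1) and Hpgds. Hpgds, a prostaglandin D synthase, was at 376, 543 and 382 CPM against 143, 191 and 199.6.

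Stress genes moved in both directions, with 7 higher and 7 lower of 33 tested (42.4%, beside 8.76% of all genes). Hspa1a, Hspa1b, Hsph1 and Hsp90aa1, chaperones of the heat shock response, were lower together with the early response genes Egr1, Klf2 and Klf6. Klf2 was at 248.5, 186 and 271 CPM against 424, 451 and 448.5, with a log2 fold change of -0.89 ± 0.15 (edgeR adjusted p = 0.00126). The small heat shock genes Hspb1 and Cryab were higher, as were Fosl2, Dusp1, Mt2, Gadd45b and Gdf15. Without distal 1, 2 of these 14 still passed, and without distal 3, 9. Hspa1a and Hspa1b are near-identical copies, so their separate counts are uncertain. The share of mitochondrial UMIs had medians of 5.17%, 3.76% and 6.15% in positive cells and 5.23%, 5.07% and 4.59% in zero cells.

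Metabolic and antioxidant genes had 7 increases and 4 decreases of 27 tested (40.7%, beside 8.76% of all genes). Of these calls, 6 remained without distal 1 and 6 without distal 3. Gpx3, a glutathione peroxidase, was at 144, 129 and 57.7 CPM against 27.4, 25.6 and 14.3, with a log2 fold change of 2.26 ± 0.21 (edgeR adjusted p = 2.58e-06). Cbr2, a carbonyl reductase, was at 268, 533 and 175 CPM against 119, 144 and 86.7. Gpx1 had its high mean from distal 2, with 471, 2519 and 532 CPM against 238, 544 and 349. Aldh1a1, an enzyme of retinoic acid synthesis, had 1 UMI in the positive cells against 184, a ratio of 0.0416 with an exact counting interval of 0.0010 to 0.235. Aldh1a1 was named after its values were seen, as was Slc2a3, a glucose transporter with the second lowest adjusted p after Wfdc15b, at 611, 750.1 and 568 CPM against 94.0, 137 and 83.4.

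**Figure D4:**
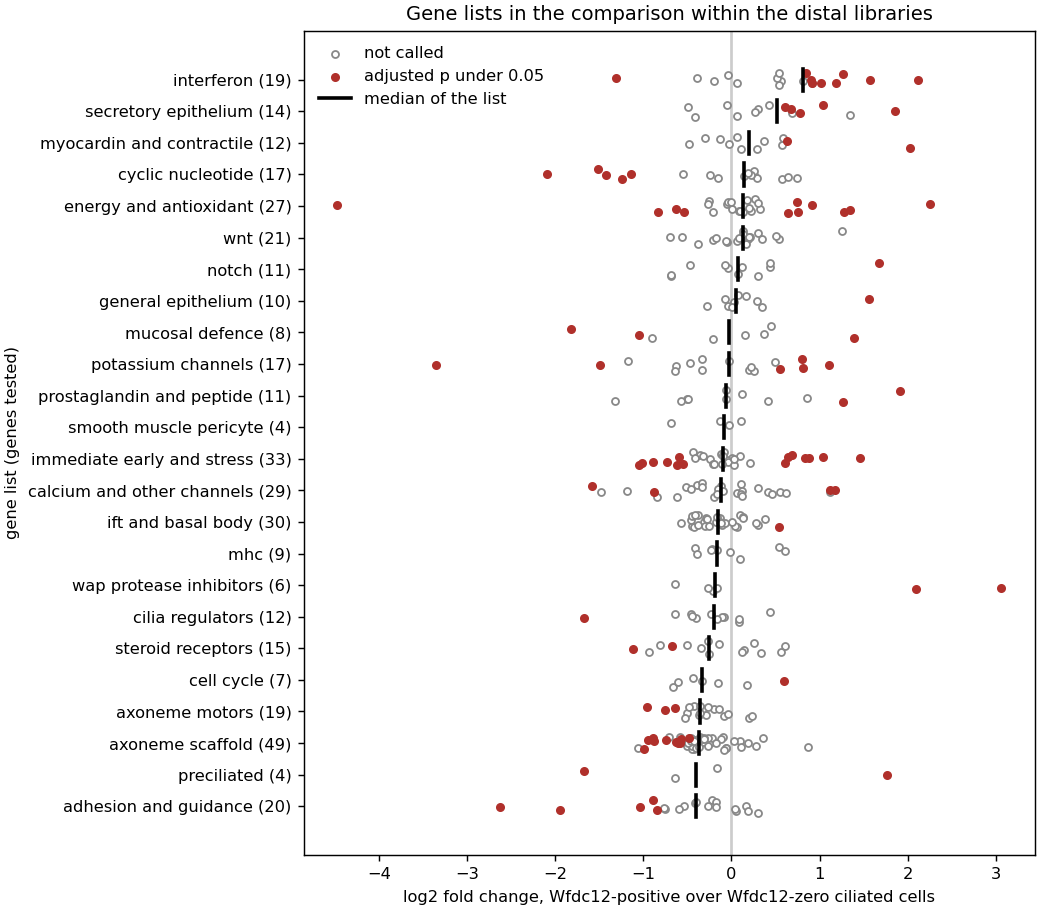
Log2 fold change of Wfdc12-positive over Wfdc12-zero cells (horizontal axis) for every tested member of each gene list with at least 4 tested genes. Filled points passed an adjusted p of 0.05, open points did not, and the bar is the median of the list. The axonemal lists lie left of 0, with medians of -0.35 and -0.37, and the interferon list lies to the right, with a median of 0.81.

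The proximal libraries held 6 Wfdc12-positive cells, 3 in proximal 2 and 3 in proximal 4, too few for a test, and their sums come with exact Poisson 95% intervals. These intervals, here and in the next paragraph, cover counting error only and not the spread between cells, which was large. All 6 positive cells had 1 to 3 Wfdc12 UMIs. Prom1 was at 480 CPM (297 to 733) in the positive and 178 CPM (71.7 to 368) in the zero cells of proximal 2, and at 587 (282 to 1080) and 392 (275 to 543) in proximal 4. By cell, the positive cells held 2, 2 and 17 Prom1 UMIs in proximal 2 and 0, 3 and 7 in proximal 4. Myocd had 8 UMIs in the 6 positive cells, 132 CPM (56.8 to 259), and 2 UMIs in the 40 zero cells, 14.1 CPM (1.71 to 51.1). The 6 positive cells had 0, 0, 0, 1, 2 and 5 Myocd UMIs. Wfdc15b had 11 UMIs in the positive cells of proximal 2 (251 CPM, 125 to 449) and 1 in the zero cells (25.5 CPM, 0.645 to 142). In proximal 4 it had 0 in the positive cells (up to 217 CPM) and 18 in the zero cells (196 CPM, 116 to 310), so the direction differed between the 2 libraries.

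S100g went opposite ways in the 2 proximal libraries with positive cells, each with 3 such cells. In proximal 2 it was at 639 CPM (425 to 924) in the positive and at 17147 CPM (15875 to 18492) in the zero cells, and in proximal 4 at 4697 (3724 to 5846) and 1046 (847 to 1277). By cell, S100g had 0, 4 and 24 UMIs in the positive cells of proximal 2 and 6, 14 and 60 in those of proximal 4. In the 6 zero cells of proximal 3 it was at 1251 CPM (666 to 2140). Ovgp1 was higher in the summed positive cells of proximal 2, at 7240 CPM (6464 to 8082) against 790 (537 to 1121), and was 2760 (2028 to 3670) against 2560 (2243 to 2909) in proximal 4. The positive cells of proximal 2 had 3, 57 and 257 Ovgp1 UMIs, so most of that sum came from 1 cell. Among the genes called in the distal comparison and named by rule, 33 had enough UMIs to read in both proximal libraries. Of these, 10 went the same way as in the distal libraries in both, 17 in 1 of them and 6 in neither.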

How the data were processed

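The deposited matrices hold whole-number UMI counts per gene and barcode, 1 per library, with no normalization. Per the file headers they were written by Cell Ranger 7.0.0, while version 6.1.2 and build mm39 stand in the submitters' processing notes. Filters of 500 UMIs or more, 250 genes or more and no more than 20% mitochondrial counts took out 1401 barcodes and left 19330. Doublets were kept in the main analysis and removed in an alternative (0.8% per 1000 barcodes, by a simulated-doublet score). Sums per library and class were tested with edgeR 4.0.16 (glmQLFit, glmQLFTest, TMM, filterByExpr with minimum count 10 and total 15, library block, Benjamini-Hochberg). DESeq2 1.42.0 was an alternative. The 13 genes of the rule were left out. The filter asks for its minimum level in as many sums as 1 class has, so a gene can be tested through 1 class alone. For example, Wfdc13, Pi16 and Adm were tested only through the positive cells, and Deup1, Kcnh8, Msln and Slit2 only through the zero cells. The shares of lists that hold such genes are not independent of the filter. On simulated counts for this comparison, with 50 genes at each fold, edgeR recovered 98% of 2-fold increases, 62% of 0.5-fold changes and 100% of 4-fold and 8-fold increases. The changed genes were drawn from the more abundant of those tested. All genes had the same dispersion, with no expression difference between libraries. Recovery of rarer or more variable genes was not measured.

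Genes were named as the 12 largest changes in each direction with the same sign in every library and at least 20 CPM in the higher class, up to 4 passing members per list, the markers, and WAP genes of at least 5 CPM. Of 664 symbols in 29 lists, 658 matched. The members and lists were chosen with earlier results of these data known. Shares were thinned by drawing 1000 UMIs per cell, or 2000 for single genes. Sequences and gene order are from RefSeq on GRCm38.p6, a different build from the files, so no coordinate of the files is printed. A region test within the Wfdc12-positive cells needs 10 cells per library and was not run.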

Additional observations from a re-analysis of the deposited data

Results flagged for a closer look

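Of the named genes called in the distal comparison, 33 had enough UMIs to read in both proximal libraries that held positive cells. Among them 10 went the distal way in both, 17 in 1 and 6 in neither. Whether 6 differs from what random signs would give was not tested. For these 6, the difference between Wfdc12-positive and Wfdc12-zero cells had 1 sign in all 3 distal libraries. It had the opposite sign in both proximal libraries. The proximal values rest on 3 positive cells per library, and the difference between the sections was not tested. Bst2 had a distal log2 fold change of 2.12, whereas it was at 274 CPM in positive against 1783 CPM in zero cells of proximal 2 and at 822 against 1035 CPM in proximal 4. Gpx1 had a distal value of 1.27, and was at 1165 against 7338 CPM and at 117 against 893 CPM. The proximal 4 values rest on 2 UMIs against 82. Mt2, a metallothionein, had 0.61, and was at 2786 against 6624 CPM and at 4521 against 5468 CPM. Ift172 had 0.54, and was at 274 against 611 CPM (12 UMIs against 24) and at 117 against 196 CPM (2 against 18). In the other direction, Drc3 had a distal value of -0.88. It was at 114 against 76.4 CPM (5 UMIs against 3) and at 117 against 87.1 CPM (2 against 8). Signs that rest on so few UMIs are uncertain. Ano1, a calcium-activated chloride channel, had -0.87, with 5 UMIs against 0 in proximal 2 and 1 against 4 in proximal 4, the latter at 58.7 against 43.6 CPM.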

How the results depend on the processing

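The number of genes that passed, 949 in the main fit, was 442 with DESeq2, 588 with Wfdc12-zero cells matched in depth, 156 of 3925 tested with every cell thinned to 1000 UMIs, and 369 with no replicate block. Thinning also set the classes anew by the thinned Wfdc12 count. It left 46, 25 and 27 positive cells in distal 1, 2 and 3, against 86, 35 and 54, and moved other positive cells into the zero class. Leaving out a library gave 425 to 992. It stayed within 1.5 times of 949 with no filter on low counts, library totals in place of TMM, doublets removed, at least 5 ciliary genes, at least 2 Wfdc12 UMIs, distal libraries only, and cells of at least 2000 UMIs, a setting added after the data were seen. The higher calls outnumbered the lower in all of these except with no filter (565 higher, 593 lower), and thinning gave 87 higher and 69 lower. None of the 80 named genes that passed changed sign under any setting that tested it, and 31 of them passed under every setting in which they were tested. Of named genes that did not pass, Wfdc1 turned to 0.059 (log2) with doublets removed, and Wfdc2 to 0.052 with matched depth. Wfdc18 passed, as lower, when thinned. Leaving out a library gave -0.57 to 0.051 for Wfdc1 and -0.58 to 0.11 for Wfdc2. The cause was not tested for any of these.

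The proximal minus distal share turned from 1.56 to -2.46 percentage points with at least 2 Wfdc12 UMIs, and leaving out a library gave -3.66 to 7.05 points. With a replicate block over the title numbers found in both sections it was 3.56 points. The descriptions number the distal libraries 1, 2 and 4, and pairing by those numbers, added after the data were seen, gave 9.33 points. The share at 1000 UMIs, -6.15 points, turned to 1.86 at 2000 UMIs, where 1 proximal library had enough cells. No region test within the Wfdc12-positive cells, its paired fit or its interaction was run, because proximal libraries held 3, 0 and 3 such cells. Detection of a single UMI depends on depth, so Wfdc12-zero cells include cells whose Wfdc12 transcripts were not sampled.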
